A study of Mus musculus with 3 samples.

Results

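Mitochondrial carriers are the proteins that move metabolites across the inner mitochondrial membrane, and their genes were followed here in mouse liver across genotype and acute inflammatory injury. The members were the rows of the deposited array table whose gene symbol, or its current name, is Slc25a followed by a number, together with Ucp2, Mpc1, Mpc2, Mtch1 and Mtch2. This gave 47 genes, each with 1 probe, of 23473 table rows. Of the 47, 32 were found under the symbol of the array annotation and 15 under an older name that was updated, among them Mpc1 (Brp44l), Mpc2 (Brp44) and Slc25a47 (AI132487). A value on all 3 arrays was present for 38 of them, on some arrays for 7, and on none for Slc25a18 and Slc25a36.

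The livers were those of female C57BL/6 mice, either wild-type or TMX-/-, the latter lacking TMX (gene Tmx1), a membrane protein of the thioredoxin family that resides in the endoplasmic reticulum. Treated mice had received an intraperitoneal injection of 3 ng lipopolysaccharide (LPS) with 10 mg D-galactosamine (GalN), a combination that injures hepatocytes, and liver was taken after 24 h. Each of the 3 arrays had 2 channels: Cy5 carried untreated wild-type liver on every array, and Cy3 carried LPS/GalN-treated wild-type liver, untreated TMX-/- liver or LPS/GalN-treated TMX-/- liver. The labels do not say how many mice stand behind a channel, whether the reference RNA was 1 preparation, how Tmx1 was deleted or how old the mice were. Groups of 1 array allow no test, so there are no p-values, and every value below describes these arrays alone. The dyes were not exchanged between arrays. A dye effect on a probe or a trait of the reference would thus shift a gene alike on every array. Neither can be told apart from a difference shared by the 3 livers. Whole liver was sampled, so fewer cells of a type and less RNA per cell cannot be told apart.

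Values are log2 ratios of the named liver to untreated wild-type liver, shifted so that the median was 0 over 10179 named genes, those measured on each of the 3 arrays. A ratio says nothing of how abundant a transcript is, so genes are compared by their ratios only. The direction was taken from Tmx1, which stood at -2.96 and -3.88 in untreated and treated TMX-/- liver and at 0.59 in treated wild-type liver. It is likely, but no label states it, and with the opposite numerator every sign below turns. The only measure of error came from 81 genes with 2 probes. From their differences, a single probe had an SD of 0.42 on the treated wild-type array, 0.42 on the untreated TMX-/- array and 0.76 on the treated TMX-/- array, and it leaves out differences between mice. A gene counts as higher or lower where its ratio reaches 2-fold, which is 1 on the log2 scale.

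The SLC25 carriers share a fold built from repeated pairs of membrane helices, and many of them exchange 1 solute for another. They feed the matrix with ADP, phosphate and fuels, and they let intermediates out again. In hepatocytes they link the urea cycle, gluconeogenesis, fatty acid synthesis and haem synthesis across the membrane. The pyruvate carrier, a pair of Mpc1 and Mpc2, is unrelated in sequence to the SLC25 proteins, and Mtch1, Mtch2 and Slc25a46 are family members of the outer membrane.

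Across the members, treated TMX-/- liver held the widest ratios. Carriers of citrate, dicarboxylates and pyruvate lay low there. The nucleotide carriers went both ways, with Slc25a24 the highest member and Slc25a23 the lowest. In treated TMX-/- liver 2 of 38 members were at least 2-fold higher (Slc25a24 and Slc25a4), beside 13.6% of all named genes, and 9 were at least 2-fold lower, beside 13.2%. Together these 11 members (28.9%) stand near the 26.8% of all genes that differed on that array. Of the 38, 26 lay below 0 and 12 above, and their median was -0.45, with 0.00 for all genes. In treated wild-type liver none was 2-fold higher, beside 2.8% of all genes, and 2 were lower (Slc25a30 and Slc25a25), beside 1.75% of all genes and 4.55% either way, and the median of the members was -0.10. No member with a value on all 3 arrays passed 2-fold in untreated TMX-/- liver, where 2.61% of all genes did, and the members ran from -0.63 to 0.63 there. No member passed 2-fold in both treated livers, but only 2 passed in the wild-type one, and this overlap was not counted over all genes. The SD over members was 0.56, 0.34 and 1.07 on the wild-type treated, TMX-/- untreated and TMX-/- treated arrays, close to the 0.48, 0.40 and 1.04 over all genes. When scaled to the same spread, 2 members were higher and 2 lower in treated TMX-/- liver, beside 4.97% and 5.50% of all genes. The higher ones were Slc25a24 and Slc25a4, the lower ones Slc25a23 and Slc25a21. The median of the members was -0.28 under that scaling, with 0.00 for all genes.

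**Figure D1:**
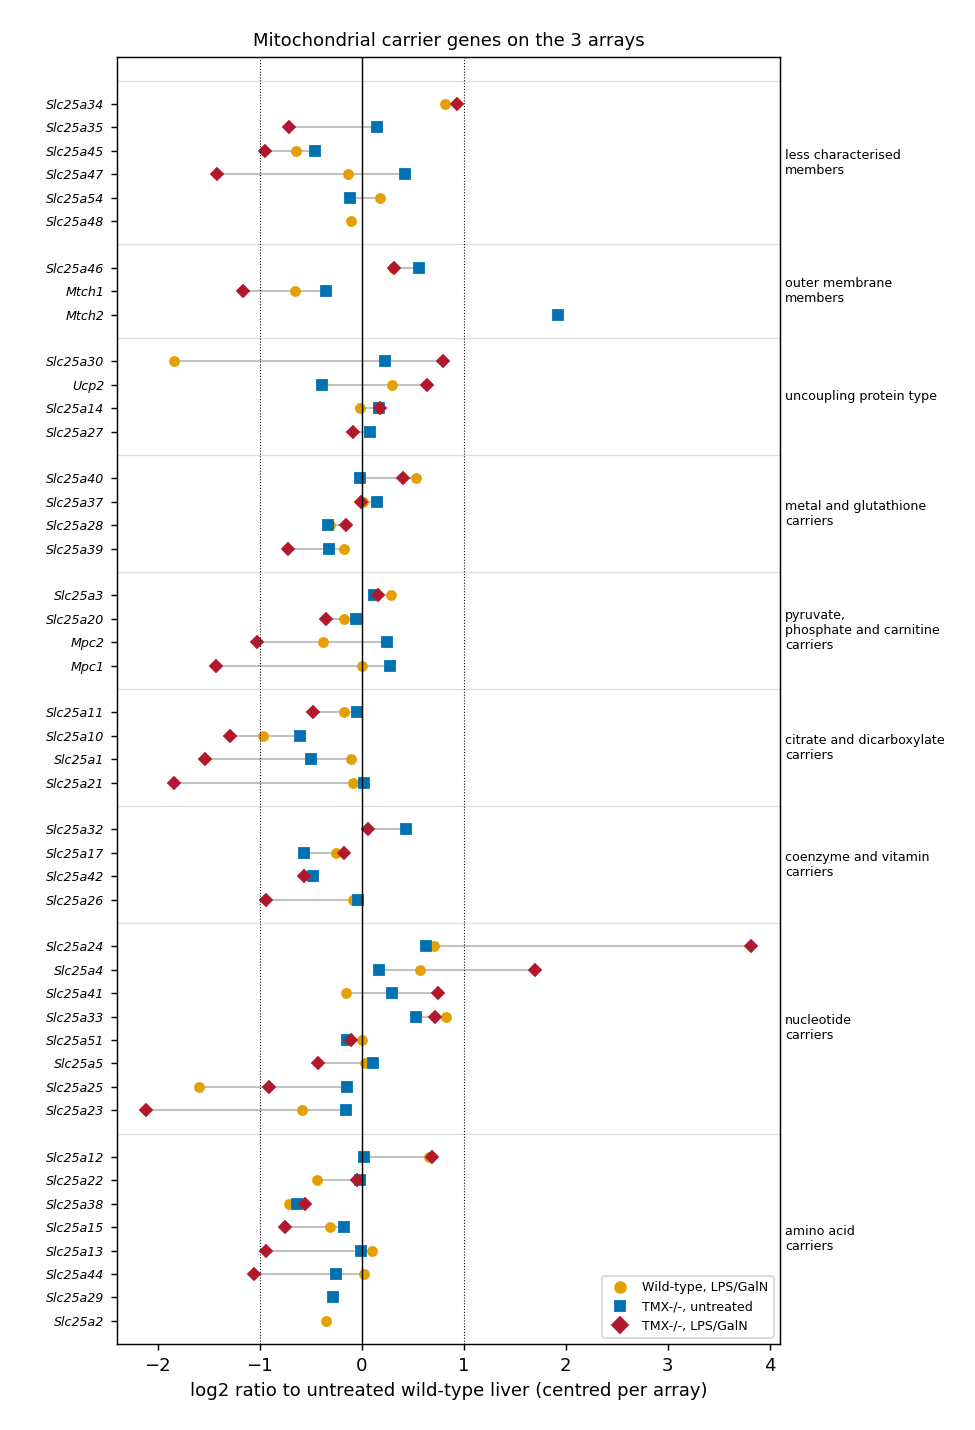
Log2 ratio to untreated wild-type liver (x axis) of the 45 carrier genes with a value, grouped by transported substrate, on the 3 arrays (1 point per array, no replicates; grey lines join the points of a gene and dotted lines mark 2-fold). Slc25a24 lies alone at 3.82 in treated TMX-/- liver, and Slc25a30 and Slc25a25 are the lowest points of treated wild-type liver.

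The nucleotide carriers had the widest spread of the carrier groups in treated TMX-/- liver, with an SD over genes of 1.79. Slc25a24, Slc25a23, Slc25a25 and Slc25a41 encode the ATP-Mg/phosphate carriers, which set the adenine nucleotide content of the matrix, the first 3 of them under control of calcium. Slc25a24 stood at 0.71 in treated wild-type liver, 0.63 in untreated TMX-/- liver and 3.82 in treated TMX-/- liver. It thus lay somewhat above the reference on every array, and 14.1-fold above it in treated TMX-/- liver, where it ranked 14 from the highest of 10179 genes. Slc25a23 stood at -0.59, -0.16 and -2.11 on the same arrays, 4.32-fold below the reference in treated TMX-/- liver. These paralogs were therefore 5.93 log2 units apart on the treated TMX-/- array and 1.30 apart on the treated wild-type array. Slc25a25 stood at -1.60, -0.14 and -0.91. It thus passed 2-fold lower in treated wild-type liver and fell short of it, at 1.88-fold lower, in treated TMX-/- liver. Slc25a41 stood at -0.15, 0.29 and 0.75, within 1 SD of a single probe of 0 on every array. Slc25a41 is the neighbouring protein-coding gene of Slc25a23 in RefSeq, and Slc25a54, a little-studied relative, that of Slc25a24. Slc25a54 stood at 0.18 in treated wild-type and -0.12 in untreated TMX-/- liver and was blank in treated TMX-/- liver.

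The bases upstream of the start sites of these carriers are shown because Slc25a24 stood farther from its relatives Slc25a23 and Slc25a25 than the members of any other pair compared stood from each other in treated TMX-/- liver. Sequences are the 250 bases before a RefSeq start (GRCm38.p6), 5′ to 3′ on the gene's strand, in lower case, with matches to 3 motifs in capitals. The motifs, searched on both strands, were TGACGTCA (the palindromic cAMP response element), CACGTG (an E-box) and GGGCGG (the core of a GC box), and no 2 of them overlap in the sequences printed. The windows are chr3:109122899-109123148, plus strand for Slc25a24, chr17:57059864-57060113, minus strand for the first of 2 starts of Slc25a23, and chr2:32424067-32424316, minus strand for the third of 3 starts of Slc25a25.
Slc25a24: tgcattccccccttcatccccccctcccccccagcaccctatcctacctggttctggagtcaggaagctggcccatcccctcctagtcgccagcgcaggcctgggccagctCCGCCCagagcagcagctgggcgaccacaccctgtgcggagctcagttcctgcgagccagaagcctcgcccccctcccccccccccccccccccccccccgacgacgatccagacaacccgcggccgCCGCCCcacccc
Slc25a23: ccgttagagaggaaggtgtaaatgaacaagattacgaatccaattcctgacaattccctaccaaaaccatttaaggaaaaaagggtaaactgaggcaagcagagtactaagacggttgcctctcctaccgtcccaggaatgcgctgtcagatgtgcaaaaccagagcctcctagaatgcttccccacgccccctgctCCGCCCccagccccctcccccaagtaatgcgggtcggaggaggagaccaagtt
Slc25a25: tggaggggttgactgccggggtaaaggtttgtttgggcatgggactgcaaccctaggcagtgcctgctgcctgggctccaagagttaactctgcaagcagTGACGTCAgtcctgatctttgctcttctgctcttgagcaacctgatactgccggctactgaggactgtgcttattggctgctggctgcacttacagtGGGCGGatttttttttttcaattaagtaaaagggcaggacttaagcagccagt
TGACGTCA was found in this window of Slc25a25, beginning 150 bases before the start, and this start was chosen for printing because the windows of the other 2 starts lack it. It was in neither window of Slc25a23 nor in that of Slc25a24. Of the members' 48 promoters 2 hold it (4.17%), the other being that of Slc25a36. The share was 1.55% of the 32851 promoters of the same length and 1.92% of those of protein-coding genes. GC box letters were in all 3 windows printed. Over the 37 members with an entry (48 promoters), GGGCGG was in 75.0% of promoters, against 32.7% of all promoters and 42.6% of those of protein-coding genes. CACGTG was in 14.6% of the members' promoters, those of Slc25a1, Slc25a13, Slc25a14, Slc25a15, Slc25a33 and Slc25a36. It was in 6.02% of all promoters and 6.63% of those of protein-coding genes. Windows of nearby starts overlap, so the same match can count for several promoters, as CACGTG does for Slc25a14. A match describes the letters and is no evidence of binding.

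Among the ADP/ATP carriers, which exchange matrix ATP for cytosolic ADP, the isoforms diverged in treated TMX-/- liver. Their ratios were 2.12 log2 units apart there and 0.53 apart in treated wild-type liver. Slc25a4 (ANT1, the main form of heart and muscle) stood at 0.57 in treated wild-type liver, 0.17 in untreated TMX-/- liver and 1.70 in treated TMX-/- liver. It was 3.24-fold above the reference there and at most 1.48-fold above it on the other arrays. Slc25a5 (ANT2, a broadly expressed form) stood at 0.03, 0.11 and -0.43, always within 1 SD of a single probe. These coding sequences are closely similar, and the sources used here do not give probe sequences, so some cross-reaction of the probes cannot be told apart from signal. Slc25a33, a pyrimidine nucleotide carrier, stood at 0.83, 0.53 and 0.71, above the reference in all 3 livers. Slc25a51, the carrier of NAD, stood at 0.00, -0.15 and -0.10, the flattest of the group. Proliferation markers lay higher beside Slc25a24 and Slc25a4 in treated TMX-/- liver, with 4 of 9 at 2-fold and a median of 0.72. Stellate cell markers did so too, with 4 of 5 at 2-fold and a median of 1.23. Of all genes 13.6% were 2-fold higher there. Markers of neutrophils (2.66), macrophages (1.46), T and NK cells (1.36), endothelium (0.41) and cholangiocytes (0.35) also had medians above 0. Those of hepatocytes (-1.30) and erythroid cells (-0.92) lay below it. The part of any of these in the carriers' ratios was not tested. The whole nucleotide group had a median of 0.31 in treated TMX-/- liver, with 2 of 8 genes 2-fold higher and 1 lower.

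The citrate and dicarboxylate carriers, which export citrate and exchange malate, succinate and oxoacids, lay lowest as a group in treated TMX-/- liver. All 4 were below 0 there, 3 of them past 2-fold, and their median was -1.42. Slc25a21, the carrier of oxoadipate from lysine and tryptophan breakdown, stood at -0.09 in treated wild-type liver, 0.02 in untreated TMX-/- liver and -1.84 in treated TMX-/- liver. It was low in the last liver alone, by 3.58-fold. Slc25a1, which exports citrate for fatty acid synthesis, stood at -0.10, -0.50 and -1.54, so it was low in treated TMX-/- liver and just past the SD of a single probe in the untreated one. Slc25a10, the dicarboxylate carrier, stood at -0.97, -0.61 and -1.29, below the reference by more than the SD of a single probe on every array. Slc25a11, the oxoglutarate/malate carrier, stood at -0.17, -0.05 and -0.48 and did not leave the range of a single probe. In treated wild-type liver the same 4 genes had a median of -0.14, with Slc25a10 the lowest.

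Enzymes that work beside these carriers were set next to them. Of 8 enzymes of the malate-aspartate and citrate shuttles, 3 were 2-fold lower and 1 higher in treated TMX-/- liver, with a median of -0.71. Acly, which splits exported citrate in the cytosol, stood at -2.00 and the cytosolic malate dehydrogenase gene Mdh1 at -2.16. Gpd2, of the glycerol phosphate shuttle, stood at 1.22 and the mitochondrial Mdh2 at 0.73. Citric acid cycle enzymes had a median of -0.79, with 4 of 15 at 2-fold lower and 14 below 0. Respiratory chain and ATP synthase subunits moved within a narrower band, with a median of -0.77, 27 of 28 below 0 and an SD over genes of 0.37, beside 1.07 over the 38 carriers. The carriers thus differed more among themselves than the respiratory subunits did, although the carriers' spread matched that of all genes.

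The pyruvate carrier genes were low together in treated TMX-/- liver. Mpc1 stood at 0.00 in treated wild-type liver, 0.28 in untreated TMX-/- liver and -1.43 in treated TMX-/- liver. Mpc2 stood at -0.38, 0.25 and -1.03. Both subunits were close to the reference in the first 2 livers and below it, by 2.70-fold and 2.04-fold, in the third, and against untreated TMX-/- liver the differences were -1.71 and -1.28. Slc25a3, the phosphate carrier, which supplies ATP synthase, stood at 0.28, 0.12 and 0.16. Slc25a20, the carnitine/acylcarnitine carrier of fatty acid oxidation, stood at -0.18, -0.06 and -0.35. Both of these stayed within 1 SD of a single probe on all arrays. Among 9 genes of pyruvate entry 3 were 2-fold lower and 1 higher in treated TMX-/- liver, with a median of -0.65. Pdk4, a kinase that inhibits pyruvate dehydrogenase, was the highest at 1.93, and the kinase genes Pdk2 (-2.06) and Pdk1 (-1.54) were the lowest. Carnitine shuttle and acyl-CoA dehydrogenase genes had a median of -0.37, with none of 7 at 2-fold.

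The upstream sequences of the pyruvate carrier genes are shown because both subunits were low on the same array. The windows are chr17:8283537-8283786, plus strand for the first of 2 starts of Mpc1 and chr1:165461010-165461259, plus strand for Mpc2, printed as above.
Mpc1: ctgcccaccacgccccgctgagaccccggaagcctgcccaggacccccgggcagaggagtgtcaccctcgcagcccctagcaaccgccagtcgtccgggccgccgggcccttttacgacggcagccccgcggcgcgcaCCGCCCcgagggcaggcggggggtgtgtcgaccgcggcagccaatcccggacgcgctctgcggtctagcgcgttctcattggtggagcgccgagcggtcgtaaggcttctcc
Mpc2: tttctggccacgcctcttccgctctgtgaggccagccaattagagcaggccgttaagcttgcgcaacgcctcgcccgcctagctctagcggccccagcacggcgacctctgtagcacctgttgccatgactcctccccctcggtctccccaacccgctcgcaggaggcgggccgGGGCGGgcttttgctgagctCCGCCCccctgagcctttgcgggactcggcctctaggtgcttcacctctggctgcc
Of the 3 motifs GGGCGG alone was present, once in this window of Mpc1 on the opposite strand and at 2 places in Mpc2.

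The amino acid carriers lay between these groups. Their median was -0.65 in treated TMX-/- liver, with 1 of 6 genes 2-fold lower and none higher. Slc25a13 (citrin, the liver aspartate/glutamate carrier) stood at 0.10 in treated wild-type liver, -0.01 in untreated TMX-/- liver and -0.94 in treated TMX-/- liver. Its paralog Slc25a12 (aralar, the main form of brain and muscle) stood at 0.66, 0.02 and 0.69. The 2 forms differed by 1.63 log2 units in treated TMX-/- liver and by 0.56 in treated wild-type liver. Slc25a15, which brings ornithine into the matrix for the urea cycle, stood at -0.31, -0.17 and -0.75. That is a smaller ratio than those of the urea cycle enzymes, whose median was -2.22 in treated TMX-/- liver, with 4 of 5 at 2-fold lower, from Asl (-3.50) to Nags (-0.89). Slc25a44, a carrier of branched-chain amino acids, stood at 0.02, -0.25 and -1.05. Slc25a38, the glycine carrier of haem synthesis, stood at -0.71, -0.63 and -0.55, nearly the same in all 3 livers. Slc25a22, a glutamate carrier, stood at -0.44, -0.02 and -0.04. Slc25a2, a second ornithine carrier, had a value on the treated wild-type array alone (-0.35), and Slc25a29, a carrier of basic amino acids, on the untreated TMX-/- array alone (-0.28).

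The metal and glutathione carriers had the median nearest to 0 of the carrier groups in treated TMX-/- liver, at -0.08, and none of 4 at 2-fold on any array. Slc25a37 (mitoferrin 1), the iron importer of erythroid cells, stood at 0.01 in treated wild-type liver, 0.15 in untreated TMX-/- liver and -0.01 in treated TMX-/- liver. Slc25a28 (mitoferrin 2), its form of other tissues, stood at -0.31, -0.33 and -0.15. Slc25a39 and Slc25a40, which import glutathione, parted slightly, with Slc25a39 at -0.18, -0.32 and -0.72 and Slc25a40 at 0.53, -0.02 and 0.41. In the same liver 9 of 10 genes of mitochondrial iron and haem handling lay below 0, with a median of -0.61, 2 at 2-fold lower and none higher. The lowest were the sideroflexin gene Sfxn2 (-1.25) and Alas1 (-1.15), which starts haem synthesis. Of 10 erythroid markers 3 had a value on all arrays, with a median of -0.92 in treated TMX-/- liver, and their part in these ratios was not tested.

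The coenzyme and vitamin carriers did not pass 2-fold on any array. Slc25a26, which imports S-adenosylmethionine, stood at -0.09 in treated wild-type liver, -0.04 in untreated TMX-/- liver and -0.94 in treated TMX-/- liver, the widest ratio of the group. Slc25a42, a coenzyme A carrier, stood at -0.51, -0.48 and -0.56, alike in all 3 livers. Slc25a32, the folate or FAD carrier, stood at 0.43, 0.43 and 0.06. Slc25a17, a peroxisomal carrier of coenzymes, stood at -0.25, -0.57 and -0.18.

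Among carriers of the uncoupling protein type, Slc25a30 lay on opposite sides of the reference in the treated livers. Slc25a30 (KMCP1, named for its abundance in kidney) stood at -1.84 in treated wild-type liver, 0.23 in untreated TMX-/- liver and 0.80 in treated TMX-/- liver. It was 3.57-fold below the reference in treated wild-type liver, rank 19 from the lowest of 10179 genes, and 6.20-fold higher in treated TMX-/- than in treated wild-type liver. Ucp2, an uncoupling protein homologue abundant in macrophages and other immune cells, stood at 0.29, -0.39 and 0.64. Treated exceeded untreated TMX-/- liver by 1.03 for Ucp2. Macrophage markers lay high in both treated livers, 8 of 10 at 2-fold, with medians of 1.20 and 1.46 in wild-type and TMX-/- liver. In untreated TMX-/- liver, where Ucp2 lay below 0, all 10 lay above it, 3 of them at 2-fold, with a median of 0.73, and their part in the Ucp2 ratio was not tested. Slc25a14 stood at -0.01, 0.17 and 0.18, and Slc25a27 at 0.08 and -0.09 on the TMX-/- arrays, with a blank on the treated wild-type array.
The window before the single RefSeq start of Slc25a30 (chr14:75787038-75787287, minus strand) is shown because this gene had opposite ratios in the treated livers.
Slc25a30: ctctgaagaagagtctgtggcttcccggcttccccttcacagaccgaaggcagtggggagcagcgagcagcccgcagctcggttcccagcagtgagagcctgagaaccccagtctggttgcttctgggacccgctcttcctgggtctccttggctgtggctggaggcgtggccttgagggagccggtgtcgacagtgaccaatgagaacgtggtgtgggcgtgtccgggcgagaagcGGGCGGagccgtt
It holds GGGCGG once, beginning 13 bases before the start, and neither of the other motifs.

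Of the outer membrane members, Mtch1, a relative of the MTCH2 insertase, stood at -0.65 in treated wild-type liver, -0.35 in untreated TMX-/- liver and -1.16 in treated TMX-/- liver, below the reference throughout. Slc25a46, a protein of mitochondrial shape and lipid handling, stood at 0.31, 0.56 and 0.31. Mtch2 had a value on the untreated TMX-/- array alone (1.93). It was the only member past 2-fold there, and rows with a value on 1 array were not part of the counts. Of the less characterised members, 1 of 3 with a value on all arrays was 2-fold lower in treated TMX-/- liver (Slc25a47), and their median was -0.94. Slc25a47, a carrier found mainly in liver, stood at -0.13, 0.42 and -1.42, and was thus 1.84 lower in treated than in untreated TMX-/- liver. It is the neighbouring protein-coding gene of Slc25a29. Slc25a45 stood at -0.64, -0.46 and -0.94 and Slc25a35 at 0.15, 0.15 and -0.72. Slc25a34 stood at 0.81 and 0.93 in the treated livers with no value in untreated TMX-/- liver, and Slc25a48 at -0.11 in treated wild-type liver alone.

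**Figure D2:**
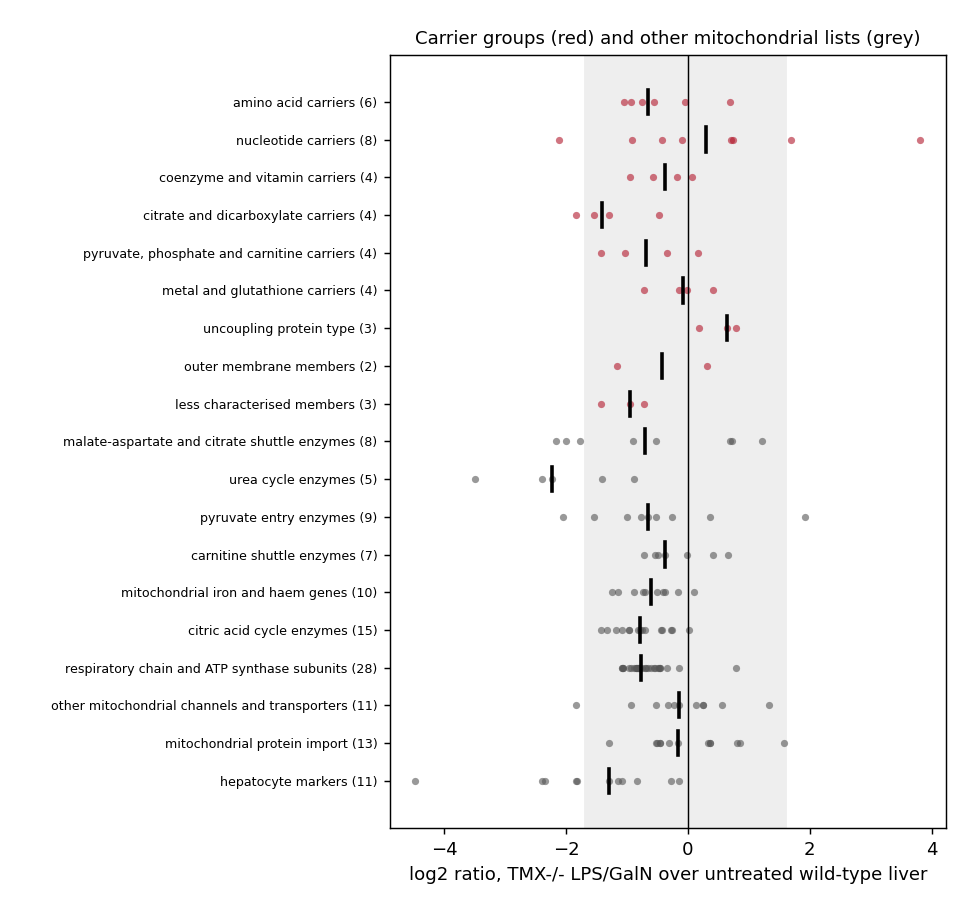
Log2 ratio of treated TMX-/- liver to untreated wild-type liver (x axis) for each gene of the carrier groups (red) and of other mitochondrial lists and hepatocyte markers (grey); black bars are medians, numbers in parentheses are genes, and the grey band spans the 5th to 95th percentile of all 10179 genes (-1.68 to 1.62). Citrate and dicarboxylate carriers have the lowest median of the carrier groups (-1.42). Of the 38 carriers 4 lie outside the band, about the share of all genes that the band leaves out by its definition.

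Hepatocyte markers lay low as well, though not lower than every group above. In treated TMX-/- liver 8 of 11 were 2-fold lower with a median of -1.30, from Cyp2e1 (-4.47) to Apob (-0.14), and in treated wild-type liver 3 of 11 were, with a median of -0.25. In untreated TMX-/- liver none was 2-fold lower, 9 of 11 lay below 0, and the median was -0.48, with Cyp2e1 at -0.96. Of the neutrophil markers S100a9 stood at 4.45 and Ly6g at -2.50 in treated TMX-/- liver, with 3 of 5 at 2-fold higher. The part of cell composition in the carriers' ratios was not tested.

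The difference between treated and untreated TMX-/- liver removes the reference, provided that 1 preparation of it was used throughout. By it 3 of 38 members were 2-fold higher (Slc25a24, Slc25a4 and Ucp2), beside 11.4% of all genes, and 6 were 2-fold lower, beside 12.1%, which makes 9 in all beside 23.5%. The 6 were Slc25a23 (-1.96), Slc25a21 (-1.86), Slc25a47 (-1.84), Mpc1 (-1.71), Mpc2 (-1.28) and Slc25a1 (-1.03). The SD of a single probe was 0.67 for this difference, so Mpc2, Slc25a1 and Ucp2 (1.03) lie within 2 of these SDs. Without further centring Ucp2 stood at 0.99, short of 2-fold. With arrays scaled to the same spread Slc25a24, Ucp2 and 5 of the 6 lower members still passed, while Slc25a4 stood at 0.78. The shares of all genes were then 6.56% higher and 7.39% lower. Between the treated livers, 3 members were 2-fold higher in TMX-/- (Slc25a24, Slc25a30 and Slc25a4), beside 9.64% of all genes, and 7 were lower, beside 10.6%, which makes 10 in all beside 20.3%. Slc25a24 was 8.61-fold higher there. The 7 lower members were Slc25a21 (-1.75), Slc25a23 (-1.53), Mpc1 (-1.44), Slc25a1 (-1.43), Slc25a47 (-1.29), Slc25a44 (-1.07) and Slc25a13 (-1.04). With arrays scaled to the same spread 3 were higher and 1 was lower between the treated livers, beside 4.38% and 5.31% of all genes. Slc25a24 (1.41), Slc25a30 (2.93) and Slc25a25 (1.56) were then the higher ones and Slc25a21 the lower one, while Slc25a4 stood at 0.30. These comparisons share the treated TMX-/- array, so a gene extreme on that array enters both.

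The responses to LPS/GalN in the genotypes were then set side by side. The TMX-/- response exceeded the wild-type response by 2-fold for 2 members, Slc25a24 (2.48) and Slc25a30 (2.40), beside 9.82% of all genes. It was 2-fold below it for 6, beside 11.6%, namely Slc25a21 (-1.77), Mpc1 (-1.71), Slc25a47 (-1.71), Slc25a23 (-1.37), Slc25a13 (-1.03) and Slc25a35 (-1.01). In all 8 of 38 differed, beside 21.4% of all genes. With arrays scaled to the same spread the counts were 6 higher and 6 lower, beside 10.5% and 12.6% of all genes. Slc25a30 (2.57) alone of the 2 higher members was then still 2-fold higher, since Slc25a24 stood at 0.41, and Mpc1, Slc25a21 and Slc25a47 of the 6 lower members were still lower. Of 38 members, 14 had responses of opposite sign in the 2 genotypes, but the same count was not made over all genes. Some of these signs rest on values near 0, such as those of Slc25a14 (-0.01 and 0.01). Treated TMX-/- liver lay farther from the reference than treated wild-type liver for 27 of 38 members (71.1%) and for 74.8% of all genes.

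**Figure D3:**
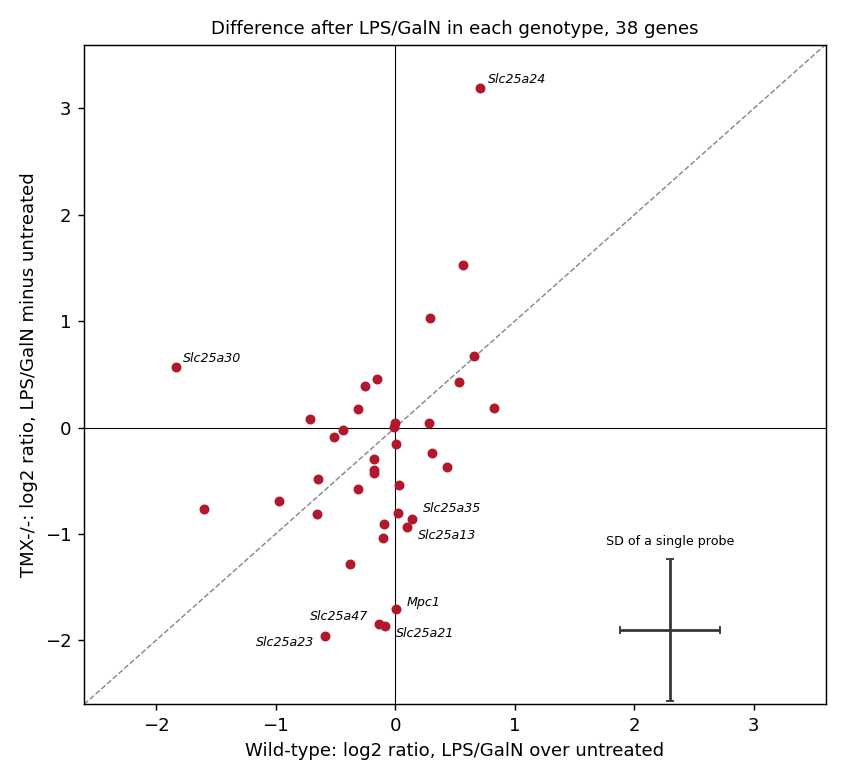
Difference after LPS/GalN in wild-type liver (x axis, treated over untreated, log2) and in TMX-/- liver (y axis, treated minus untreated, log2) for the 38 carrier genes with all values; the dashed line marks equal responses, the cross the SD of a single probe (0.42 and 0.67), and genes whose responses differ 2-fold are named. Slc25a24 lies far above the line at 0.71 and 3.19, and Slc25a30 is low in wild-type liver alone.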

How the data were processed

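The table the authors deposited holds log ratios, taken as log2 here, from 3 Toray arrays with Cy5 and Cy3 channels, per the labels. The logarithm's base, the numerator, the normalization and the reason for blanks were not given in the sources used here. Were the logarithm natural, every fold would be raised to the power 1.44. Deposited medians lay at 0 (-7.06e-06, -6.94e-05 and 1.14e-04), so arrays had been centred before deposit. No signal values were analysed, so bright and dim probes could not be separated, and precision is limited by the number of arrays.

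Symbols of the platform annotation were updated through RefSeq synonyms (GRCm38.p6): of 16631 named rows 3947 were renamed and 62 kept their name, and 6842 rows had none. Probes of a gene were averaged, and each array was centred on its median over 10179 genes (-0.05, -0.03 and -0.07). Blanks stayed missing. Every member with a value is named, and of other lists at most the 2 highest and 2 lowest in treated TMX-/- liver. Members and lists were chosen with earlier results of these data known. Alternatives were no further centring, equal spread, all genes with the needed values, 1.5-fold and 3-fold, a natural logarithm, 1 probe per gene, and means for medians. The steps were tested on simulated data. Promoters came from RefSeq for 37 members, and 10 had no entry. Python 3.11.15, pandas 2.3.3 and matplotlib 3.10.9 were used.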

Additional observations from a re-analysis of the deposited data

Results flagged for a closer look

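Slc25a30 and Mpc1 had ratios of opposite sign in the genotypes after LPS/GalN, with responses more than 2 SDs of a single probe apart (0.65 for this difference). For Slc25a30 the responses were -1.84 in wild-type and 0.57 in TMX-/- liver, a difference of 2.40. For Mpc1 they were 0.00 and -1.71, a difference of -1.71, and the wild-type value is indistinguishable from 0. Without further centring both Mpc1 responses lay below 0, at -0.04 and -1.75, so its opposite signs rest on the centring. Each response rests on 1 array per group, and the difference between genotypes was not tested against variation between mice.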

How the results depend on the processing

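No paired analysis was possible because each group has 1 array. No value past 2-fold changed sign under any alternative run. For values of single arrays this was fixed in advance, since scaling keeps the sign and centring shifted no array by more than 0.07. Without further centring, counts of members past 2-fold stayed within 1.5 times of the reported ones. With 1 probe per gene they did so too, but each member has 1 probe, so only the array centre could move. With arrays scaled to the same SD, 4 members passed 2-fold in treated wild-type liver (10.0% of all genes) and 2 in untreated TMX-/- liver (10.4%). In treated TMX-/- liver 4 passed, 2 higher beside 4.97% of all genes and 2 lower beside 5.50%. Between the treated livers 4 passed, 3 higher beside 4.38% and 1 lower beside 5.31%. Medians moved by more than the SD of a single probe under this scaling for urea cycle enzymes (-1.37 in treated TMX-/- liver, -1.02 for the TMX-/- response and -0.60 between treated livers) and for citrate and dicarboxylate carriers in the TMX-/- response (-0.18). At 1.5-fold 10 of 38 members passed in treated wild-type liver (18.0% of all genes) and 3 in untreated TMX-/- liver (12.5%). In treated TMX-/- liver 23 passed, 7 higher beside 25.5% of all genes and 16 lower beside 25.0%. For the TMX-/- response 17 passed, 4 higher beside 23.2% and 13 lower beside 23.6%. For the difference of responses 20 passed, 8 higher beside 21.3% and 12 lower beside 22.6%. At 3-fold 4 passed in treated TMX-/- liver, 2 higher beside 5.37% of all genes and 2 lower beside 5.77%. For the TMX-/- response 5 passed, 1 higher beside 4.23% and 4 lower beside 4.81%. Between the treated livers 3 passed, 2 higher beside 3.12% and 1 lower beside 4.42%. For the difference of responses 5 passed, 2 higher beside 3.07% and 3 lower beside 4.51%. Read as a natural logarithm, 6 members passed 2-fold in treated wild-type liver, 2 higher beside 7.07% of all genes and 4 lower beside 5.24%. In treated TMX-/- liver 21 then passed, 5 higher beside 21.9% and 16 lower beside 21.3%. For the TMX-/- response 15 did, 3 higher beside 19.4% and 12 lower beside 19.9%. For the difference of responses 17 did, 6 higher beside 17.7% and 11 lower beside 19.1%. With members blank on another array included, 1 member (Mtch2) passed in untreated TMX-/- liver, and the median of the outer membrane members became 0.56 there. Means in place of medians moved the uncoupling protein type to -0.52 in treated wild-type liver and 1.06 between treated livers, through Slc25a30. For nucleotide carriers in treated wild-type liver the median (0.02) and the mean (-0.02) differ in sign. The SD of a single probe limits what these arrays resolve.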
